A study of Mus musculus with 18 samples.

Results

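The effect of (+)-JQ1 on chromatin accessibility in lipopolysaccharide (LPS)-stimulated macrophages was described from 6 of the 18 ATAC-seq libraries of the study. These were chosen by treatment: 3 libraries of cells given (+)-JQ1 and then LPS, and 3 of cells given LPS without (+)-JQ1. ATAC-seq measures how readily the Tn5 transposase inserts into DNA, and open chromatin collects more reads. All cells were bone marrow-derived macrophages (BMDMs) from Il10-/- mice on the C57BL/6J background, 12-week-old males, grown for 6 days in medium with L929 conditioned medium. The LPS + (+)-JQ1 cells were exposed to 500 nM (+)-JQ1 for 12 h before 50 ng/mL LPS was added for 4 h. The LPS cells received the same LPS exposure and, per the methods, vehicle in place of (+)-JQ1, where the labels call them untreated. A further 3 libraries of (+)-JQ1 without LPS and 3 of unstimulated cells, all collected at 16 h, served to compare the effect outside stimulation. Both arms lack Il10, so no group here has the IL-10 feedback of a wild-type macrophage.

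The compound (+)-JQ1 binds the acetyl-lysine pockets of the BET family of proteins. BET proteins dock on acetylated histones at enhancers and promoters and recruit the elongation factor P-TEFb to RNA polymerase II. LPS is sensed by TLR4, which activates NF-kappaB and AP-1 factors and, through IRF3 and secreted type I interferon, the STAT factors that switch on interferon-stimulated genes.

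The regions that carry the contrast are shown first by their sequence, all on the plus strand of mm9. The first 6 are stretches of 200 bp, outside annotated exons, from the named distal peaks with the largest changes in each direction, leaving out those of Gm4951 and Iigp1, whose sequence is not shown. In all 12 stretches capitals mark matches, on either strand, to motifs of AP-1 (TGANTCA), IRF (GAAANNGAAA), NF-kappaB (GGGANNTTCC), PU.1 (GAGGAAGT) and C/EBP (TTGCNNCAA), where N is any base, and the stretch taken from each peak was the one with the most kinds of match, then the most matches, then nearest the centre. The lowered regions lie near Traf1, Ckap2l and Il1b, and the Ckap2l stretch holds an AP-1 match while those of Traf1 and Il1b hold none.
Traf1, chr2:34792213-34792412: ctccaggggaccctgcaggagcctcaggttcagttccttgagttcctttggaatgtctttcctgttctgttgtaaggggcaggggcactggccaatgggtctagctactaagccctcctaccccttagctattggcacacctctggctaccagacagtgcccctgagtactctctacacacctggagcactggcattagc
Ckap2l, chr2:129118317-129118516: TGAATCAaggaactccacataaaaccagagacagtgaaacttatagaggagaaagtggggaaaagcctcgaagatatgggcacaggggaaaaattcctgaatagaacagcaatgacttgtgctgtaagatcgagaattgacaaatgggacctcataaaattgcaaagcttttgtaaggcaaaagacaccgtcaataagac
Il1b, chr2:129190106-129190305: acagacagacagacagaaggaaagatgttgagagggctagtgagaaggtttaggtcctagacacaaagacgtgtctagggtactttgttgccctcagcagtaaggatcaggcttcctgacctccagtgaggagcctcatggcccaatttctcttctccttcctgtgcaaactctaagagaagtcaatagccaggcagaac
The raised regions lie near Hist1h4j, Irg1 and Srxn1, and the Hist1h4j and Irg1 stretches each hold an AP-1 match while that of Srxn1 holds none.
Hist1h4j, chr13:21832722-21832921: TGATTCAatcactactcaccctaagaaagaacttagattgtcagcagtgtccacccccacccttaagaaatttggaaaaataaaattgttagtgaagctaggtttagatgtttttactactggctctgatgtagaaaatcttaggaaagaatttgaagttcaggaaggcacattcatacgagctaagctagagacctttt
Irg1, chr14:103371487-103371686: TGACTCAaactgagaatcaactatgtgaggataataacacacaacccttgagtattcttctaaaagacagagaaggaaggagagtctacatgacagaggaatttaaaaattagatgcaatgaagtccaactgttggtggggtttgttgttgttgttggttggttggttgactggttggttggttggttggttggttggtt
Srxn1, chr2:151943892-151944091: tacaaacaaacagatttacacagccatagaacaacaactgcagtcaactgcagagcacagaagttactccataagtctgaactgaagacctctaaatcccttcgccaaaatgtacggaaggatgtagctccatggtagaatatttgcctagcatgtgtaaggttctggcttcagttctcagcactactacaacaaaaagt

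The other 6 stretches are those with the most matches among the distal peaks named in the results. Their changes were smaller, down to an absolute log2 fold-change of 0.62. The lowered ones lie near Fcgr1 (an IRF and a C/EBP match), Nr1h3 (an AP-1 and an IRF match) and Socs1 (a pair of AP-1 matches).
Fcgr1, chr3:96091863-96092062: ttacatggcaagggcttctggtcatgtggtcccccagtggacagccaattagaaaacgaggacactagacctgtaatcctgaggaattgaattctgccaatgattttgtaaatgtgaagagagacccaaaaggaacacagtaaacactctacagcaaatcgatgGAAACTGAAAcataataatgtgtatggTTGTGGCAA
Nr1h3, chr2:91056213-91056412: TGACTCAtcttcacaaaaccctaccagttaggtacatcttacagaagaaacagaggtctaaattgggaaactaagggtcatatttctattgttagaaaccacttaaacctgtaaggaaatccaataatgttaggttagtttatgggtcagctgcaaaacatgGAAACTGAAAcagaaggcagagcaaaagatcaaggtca
Socs1, chr16:10782142-10782341: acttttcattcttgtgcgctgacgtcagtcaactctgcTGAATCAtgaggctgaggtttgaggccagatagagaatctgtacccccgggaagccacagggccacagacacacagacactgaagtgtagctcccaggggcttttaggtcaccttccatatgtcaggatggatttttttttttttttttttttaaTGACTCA
The raised ones lie near Ccl6 (a pair of AP-1 matches and a C/EBP match), Pdgfa (a PU.1 match and a pair of AP-1 matches) and the region whose nearest gene is Gm17350 (an AP-1 and a PU.1 match). A match is a description of the letters and was not tested as a binding site.
Ccl6, chr11:83430407-83430606: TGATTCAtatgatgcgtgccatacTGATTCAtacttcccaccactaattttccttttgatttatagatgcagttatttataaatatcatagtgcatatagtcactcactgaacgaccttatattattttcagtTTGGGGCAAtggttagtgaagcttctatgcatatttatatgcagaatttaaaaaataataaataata
Pdgfa, chr5:139491022-139491221: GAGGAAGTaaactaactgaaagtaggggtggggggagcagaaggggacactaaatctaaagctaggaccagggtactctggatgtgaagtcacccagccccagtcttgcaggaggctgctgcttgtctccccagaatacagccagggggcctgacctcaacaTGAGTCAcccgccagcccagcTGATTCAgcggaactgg
Gm17350, chr8:130726171-130726370: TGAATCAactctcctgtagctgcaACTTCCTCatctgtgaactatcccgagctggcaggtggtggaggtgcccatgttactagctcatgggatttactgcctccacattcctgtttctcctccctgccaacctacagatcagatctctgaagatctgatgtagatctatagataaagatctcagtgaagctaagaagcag

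Pretreatment with (+)-JQ1 lowered more regions than it raised. Of 194230 peaks tested, 6770 lost accessibility (3.49%) and 3378 gained it (1.74%) in LPS + (+)-JQ1 relative to LPS cells, counting as differentially accessible regions (DARs) those with an adjusted p under 0.05 and an absolute log2 fold-change above 0.5 in the quasi-likelihood test of edgeR, p-values being adjusted by Benjamini and Hochberg's method. In the class the authors named promoter, 1181 of 36666 peaks fell (3.22%) and 630 rose (1.72%). In the distal class 5589 of 157564 peaks fell (3.55%) and 2748 rose (1.74%). Losses were also deeper: 2895 of the lowered distal peaks (51.8%) changed by more than 1 on the log2 scale, against 609 of the raised distal peaks (22.2%), and 177 lowered against 17 raised peaks of both classes changed by more than 2. The plot of fold-change against level shows both classes. In bulk libraries, opening in fewer cells and less opening per cell cannot be told apart.

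**Figure D1:**
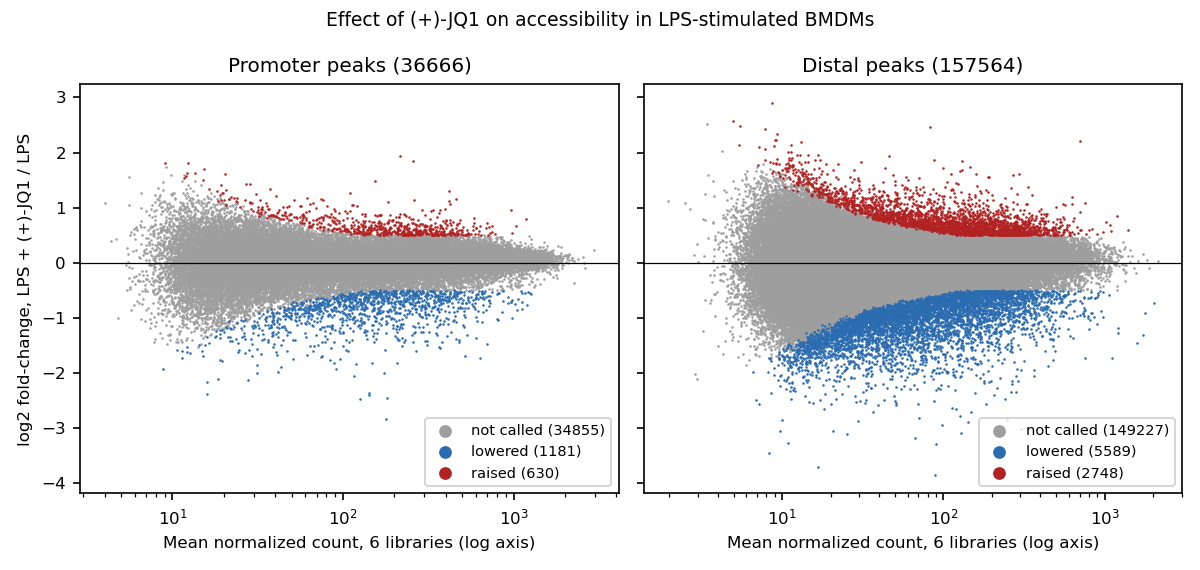
Each point is a peak, with its mean normalized count over the 3 LPS and 3 LPS + (+)-JQ1 libraries on a log axis and its log2 fold-change (LPS + (+)-JQ1 over LPS) on the other axis. Lowered peaks (blue; 1181 promoter and 5589 distal) extend further from 0 than raised peaks (red; 630 and 2748), and grey peaks were not called.

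Within each same-numbered pair of libraries the change was of like size. The median log2 ratio of the lowered distal peaks was -0.93, -1.02 and -1.03 in pairs 1, 2 and 3, and that of the raised distal peaks was 0.70, 0.76 and 0.74. The first pair was sequenced on lane 5 and the other two on lane 6, so lane and treatment were not confounded. The counts of DARs depended on single libraries: without LPS + (+)-JQ1 replicate 2 the test called 3675 lowered and 1740 raised distal peaks, and without LPS + (+)-JQ1 replicate 3 it called 3535 lowered distal peaks. Leaving replicate 2 out of every group gave 2445 lowered and 798 raised distal peaks, and 566 and 170 promoter peaks. Leaving replicate 3 out of every group gave 2860 and 1488 distal and 744 and 395 promoter peaks.

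The levels place these regions among the other groups. Over the 5589 lowered distal peaks the median normalized count was 94.9, 91.0 and 93.1 in the 3 LPS libraries and 47.6, 43.1 and 43.7 in the 3 LPS + (+)-JQ1 libraries. The unstimulated libraries had medians of 44.0, 40.3 and 37.1 at the same peaks, and the (+)-JQ1 libraries without LPS 32.5, 31.6 and 32.4. At these regions the LPS libraries therefore stood apart from all the others. Over the 2748 raised distal peaks the LPS medians were 83.7, 86.3 and 81.9, and those of LPS + (+)-JQ1 were 134, 146 and 139. Unstimulated cells had 101, 111 and 130 there, between the groups, and (+)-JQ1 alone gave 157, 155 and 157. Since the LPS and LPS + (+)-JQ1 libraries chose the peaks, these levels are a description.

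By position, introns held 52.1% of the lowered distal peaks, 48.1% of the raised and 53.7% of all distal peaks tested, and 41.5%, 48.1% and 41.0% lay between genes. The median distance to the nearest protein-coding transcription start site (TSS) was 21098 bp for lowered and 22120 bp for raised distal peaks, against 18764 bp for all. Both sets were wider than the rest, with median widths of 1421 and 1441 bp against 906 bp for all distal peaks. Wider peaks collect more reads, and the part of width in the calls was not tested. Of the peaks in the authors' promoter class 39.9% lay over a protein-coding TSS of the annotation used here. Their median distance to the nearest one was 3080 bp for lowered, 939 bp for raised and 588 bp for all. A promoter-class peak is therefore not always at the promoter of the gene it is named by.

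The largest loss of accessibility among peaks with a mean of at least 50 normalized counts lay 20916 bp from the TSS of Traf1, which encodes an adaptor of TNF receptor signalling, in a peak between genes at chr2:34791888-34792738. Its normalized counts were 206, 156 and 131 with LPS and 17.3, 10.3 and 8.74 in LPS + (+)-JQ1 cells. The groups did not overlap, and the LPS + (+)-JQ1 libraries lay within the range of the unstimulated ones (23.9, 14.5 and 7.21). The log2 fold-change was -3.84 ± 0.31 (SE), a 14.4-fold difference, with an edgeR adjusted p of 4.4e-18. Each SE given was worked back from the log2 fold-change and the F statistic of the edgeR test. It rests on a spread estimated with all libraries of the fit and with information shared across peaks. It is therefore not the spread of the libraries printed beside it.

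Regions of the Il1 locus on chromosome 2 lost accessibility together. A distal peak over an untranslated exon part of Il1b, the gene of the cytokine interleukin-1β (chr2:129189793-129191003, 5872 bp from its TSS), had counts of 585, 538 and 485 with LPS and 121, 33.8 and 56.1 in LPS + (+)-JQ1 cells. All 3 treated libraries lay far below the LPS libraries, and replicate 1 kept the highest of the 3 values. The treated libraries had a mean of 70.3 and an SD of 45.4, a wide spread that the SE below does not describe. The log2 fold-change was -3.01 ± 0.20 (edgeR adjusted p = 9.4e-24). A promoter-class peak outside the gene body, 7521 bp from the TSS (chr2:129188319-129189354) went from 332, 305 and 289 to 80.7, 33.8 and 27, a log2 fold-change of -2.82 ± 0.21 (edgeR adjusted p = 1.6e-20). In an intron of Ckap2l, a mitotic spindle gene, a peak that is also within 25 kb of the TSS of Il1a (interleukin-1α) fell by 3.17 on the log2 scale (SE 0.32), from 151, 120 and 87.5 to 24.5, 8.20 and 10.2. Nearer to Il1a, a distal peak 10859 bp from its TSS had 249, 194 and 173 counts with LPS and 38.9, 33.8 and 27.7 in LPS + (+)-JQ1 cells. The log2 fold-change there was -2.65 ± 0.22.

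Near Il6, the gene of interleukin-6, a distal peak 8852 bp from the TSS (chr5:30348553-30350317) had counts of 241, 169 and 177 with LPS. With LPS + (+)-JQ1 it had 21.6, 39.0 and 32.1, close to the unstimulated values of 25.1, 16.5 and 23.7. The log2 fold-change was -2.63 ± 0.25 (edgeR adjusted p = 5e-15), and the groups did not overlap.

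Of the genes on the list of interferon-stimulated genes described further on, Oas2 and Oasl1 were among the named peaks. Oas2, which encodes an antiviral 2′-5′ oligoadenylate synthetase, had a distal peak 8249 bp from its TSS with 432, 436 and 443 counts with LPS and 53.3, 64.6 and 62.6 in LPS + (+)-JQ1 cells. The libraries of each group were within a narrow range, and the log2 fold-change of -2.84 ± 0.16 had the lowest adjusted p of the named peaks (2.9e-27 by edgeR). At Oasl1, an oligoadenylate synthetase-like gene, an intronic peak went from 192, 177 and 150 to 20.2, 25.6 and 21.9 (log2 fold-change -2.93 ± 0.24). Next to it, a distal and a promoter-class peak whose nearest TSS is that of 2210016L21Rik fell by 2.70 ± 0.21 and 2.44 ± 0.19 on the log2 scale. The distal one had 306, 282 and 183 counts with LPS and 36.0, 32.8 and 47.4 in LPS + (+)-JQ1 cells. The Oasl1 peak and both 2210016L21Rik peaks are neighbours on chromosome 5 and are not independent of each other.

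Peaks near Iigp1, an interferon-inducible GTPase gene on chromosome 18, were also among the largest losses. The one 16745 bp from its TSS had 230, 203 and 255 counts with LPS and 34.6, 16.4 and 30.6 in LPS + (+)-JQ1 cells, a log2 fold-change of -3.08 ± 0.25. At Gm4951, also on chromosome 18, an intronic distal peak went from 150, 161 and 180 to 15.9, 23.6 and 11.7 (-3.28 ± 0.26), and a promoter-class peak in the same gene fell by 2.48 ± 0.22. On chromosome 1, a peak within 25 kb of both Pydc3 and Pyhin1 fell from 210, 218 and 237 to 36.0, 43.1 and 21.1 (-2.77 ± 0.23). In the promoter class, the peak nearest Samd9l, an interferon-inducible gene whose TSS lay 54549 bp away, fell by 2.06 ± 0.20, and a peak of 5412 bp overlapping Cerkl and Itga4, the latter encoding integrin α4, fell by 2.00 ± 0.17. In all 15 lowered peaks named, the LPS and LPS + (+)-JQ1 libraries did not overlap, as in 95.2% of all lowered distal and 95.8% of lowered promoter-class peaks. These peaks were called from the same libraries, which favours groups that do not overlap, so the shares are a description. The share over all tested peaks is not given here.

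**Figure D2:**
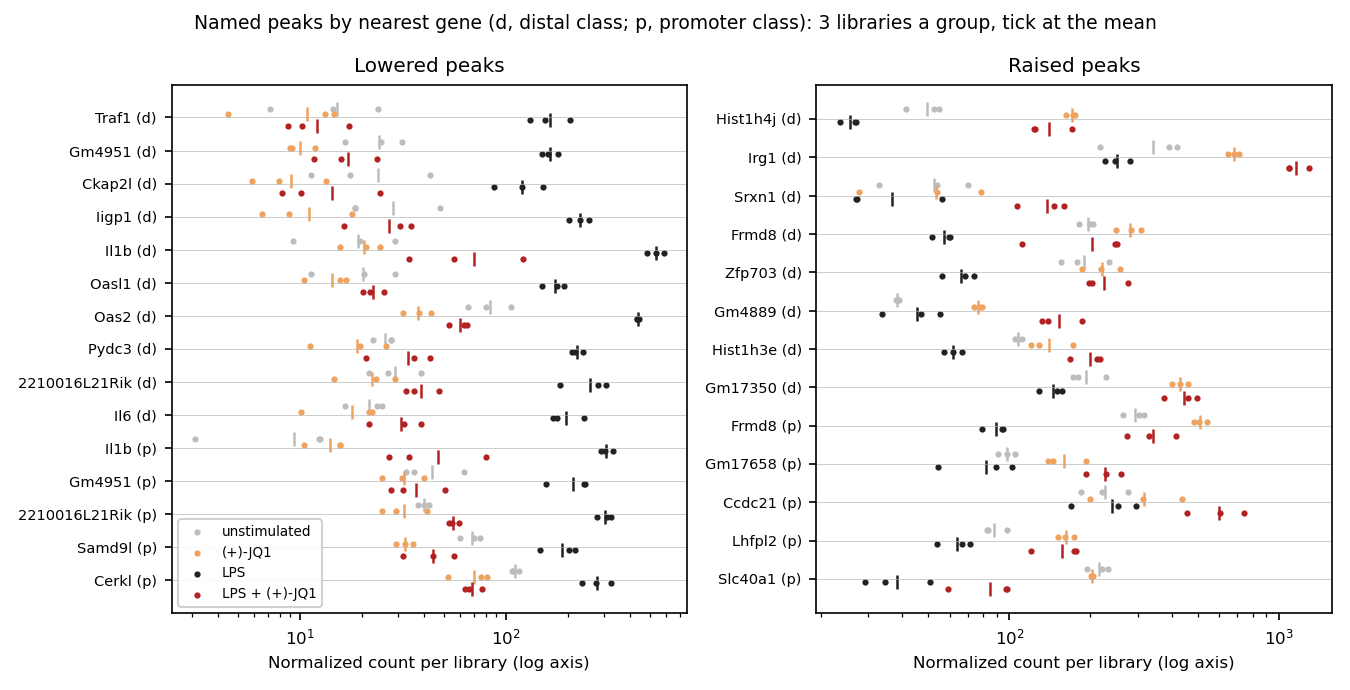
Normalized counts of the 28 named peaks (log axis), 1 row a peak labelled by its nearest gene, with 1 point a library for unstimulated, (+)-JQ1, LPS and LPS + (+)-JQ1 cells and a tick at each mean of 3. In the left panel the LPS points (black) lie above the other 3 groups in every row, and in the right panel the LPS + (+)-JQ1 points (red) lie above the LPS points in every row.

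Gene functions were compared through 18 lists of genes, counting the peaks within 25 kb of a member's TSS. Among all 123738 peaks within that distance of a protein-coding TSS, 3.27% were lowered and 1.61% raised, with a median log2 fold-change of 0.01. The interferon-stimulated genes stood furthest from this: 176 of their 462 peaks were lowered (38.1%) and 2 raised, the median was -0.50, and 29 of 30 genes had at least 1 lowered peak, against 3098 of all 18479 protein-coding genes with a peak (16.8%). The gene without one was Ifit2, and the raised peak within its window lay 23258 bp from its TSS in an intron of Lipa, in the raised run at Lipa described further on. Oasl1 had 17 lowered peaks of 25, Oas2 15 of 17, Cmpk2 14 of 24, Rsad2 (viperin) 13 of 23 and Ifih1 (the RNA sensor MDA5) 11 of 18. Lists hold neighbouring genes that share peaks, so peaks and genes of a list are not independent.

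Cytokines and effector enzymes followed. Of 324 peaks near inflammatory cytokine genes 62 fell (19.1%) and 1 rose, with a median of -0.14. Il1a had 13 lowered peaks of 21, Il18 and Il27 had 9 each of 17 and 15, Il1b had 7 of 20, Il23a 6 of 13, and Il6 and Il12b had 5 each of 13 and 18. At least 1 lowered peak lay near 11 of the 21 genes, against the 16.8% of all genes. The 1 raised peak lay 1817 bp from the TSS of Osm (oncostatin M) and within reach of Lif, with 325, 332 and 275 counts against 457, 494 and 396 (log2 fold-change 0.52 ± 0.14, edgeR adjusted p = 0.0081). Of 334 peaks near inflammatory enzymes and effectors 65 fell (19.5%) and 3 rose. Slc7a2, an arginine transporter, had 18 lowered of 26, Irg1, which makes itaconate, 11 of 23, Ptges (prostaglandin E synthase) 5 of 26 and Ptgs2 (cyclooxygenase-2) 4 of 12. Nos2, the inducible nitric oxide synthase, had 1 of 8.

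The transcription factors of the interferon response lost accessibility without a gain. Near the IRF and STAT genes 32 of 210 peaks fell (15.2%) and 0 rose, with Irf7 at 5 of 14 and Irf1 at 4 of 17. The peaks near Irf3 and the other 3 genes of this list without a call did not pass the test. Costimulation and antigen presentation genes had 28 lowered peaks of 222 (12.6%) and 2 raised, with Cd40 at 10 of 22 and H2-Ab1, an MHC class II chain, at 5 of 20. At Cd40 the peak with the lowest adjusted p went from 497, 392 and 439 to 222, 130 and 112 (-1.56 ± 0.17).

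Chemokine genes split. Of 221 peaks 23 fell (10.4%) and 8 rose (3.62%). Cxcl10 and Cxcl9, which draw T cells and lie side by side, had 9 of 19 and 8 of 21 lowered peaks, and Ccl12 had 4 of 17. At Ccl5 a peak 4474 bp from the TSS fell from 891, 619 and 678 to 349, 176 and 143 (-1.76 ± 0.17, edgeR adjusted p = 4.7e-14). Raised peaks lay near Cxcl16 (3 of 15), Ccl6 (2 of 22), Cxcl5 (2 of 18), Cxcl3 and Ccl24. The Ccl6 peak shown above by its sequence had 260, 227 and 221 counts with LPS and 375, 438 and 442 in LPS + (+)-JQ1 cells (0.83 ± 0.14). The neutrophil chemokine genes Cxcl1 and Cxcl2 had no DAR.

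NF-kappaB genes were lowered at a smaller share, 15 of 270 peaks (5.56%), with 3 raised, all at Tnip3. The lowered ones lay near Tnfaip3 (A20, an inhibitor of the pathway; 6 of 23), Nfkb1 (4 of 40), Nfkbiz (4 of 19) and Tnip1. Of the Myc and cell cycle list 19 of 277 peaks fell (6.86%) and 3 rose, and 10 of the 19 lay near Ccnd2 (cyclin D2). Near Myc itself no peak passed the test. In the AP-1 family 11 of 257 peaks fell (4.28%), near Maff, Batf2, Jdp2, Batf and Jund, and 4 rose, near Jun, Jdp2 and Jund. The Jun peak with the lower adjusted p, 4222 bp from the TSS, had 40.6, 72.2 and 58.3 counts with LPS and 127, 150 and 162 in LPS + (+)-JQ1 cells (1.38 ± 0.20, edgeR adjusted p = 1.6e-07). With a window of 10 kb in place of 25 kb this list had 1 more raised than lowered peak.

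**Figure D3:**
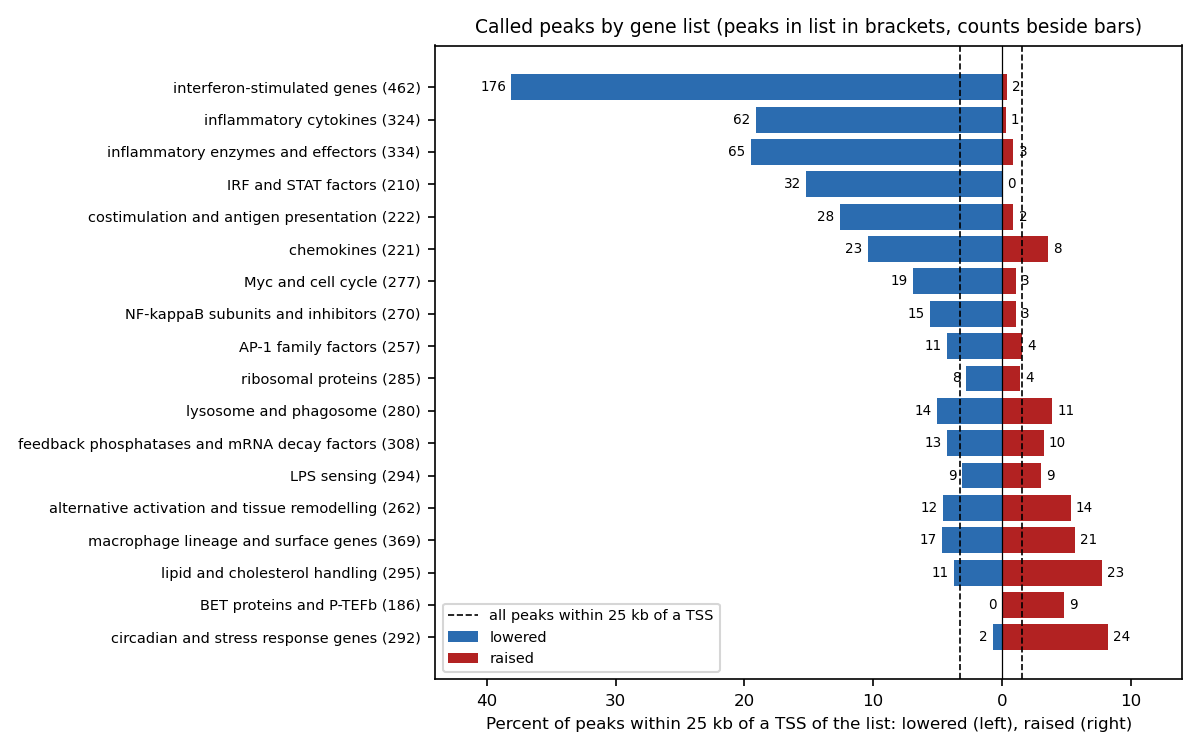
Bars give the percent of peaks within 25 kb of the TSS of each list's genes that were lowered (blue, left) or raised (red, right), with counts beside the bars, and dashed lines give the same for all peaks near a protein-coding TSS (3.27% and 1.61%). The interferon-stimulated genes extend furthest to the left (38.1%) and the circadian and stress response genes furthest to the right (8.22%).

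Lowered peaks formed long runs. Joining lowered peaks with gaps of at most 10 kb, 48.4% of the 6770 lay in runs of 3 or more, against 12.3% of the 3378 raised peaks. A fixed gap joins more neighbours in a larger set, so these shares are not on equal terms. The part of set size in them was not tested. The longest held 88 lowered peaks of 106 over 273 kb of chromosome 7, all within Slco3a1, an organic anion transporter gene. The median count over these 88 peaks was 104, 96.6 and 101 with LPS and 55.5, 41.5 and 48.8 in LPS + (+)-JQ1 cells. Lass6 (a ceramide synthase) on chromosome 2 held 81 of the 85 lowered peaks in a run of 88, where LPS libraries had medians of 204, 207 and 192 and LPS + (+)-JQ1 libraries 105, 85.1 and 89.6. Tmcc3 on chromosome 10 held 80 of 83 in a run of 110 peaks. Each of these runs covered most of 1 gene body, and no run of the 5 longest held a raised peak.

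The other 2 of the 5 longest lowered runs lay at genes that act on bacterial or viral products. Aoah, which encodes the enzyme that removes acyl chains from LPS, held 46 of 51 lowered peaks in a run of 56 on chromosome 13, with a median log2 fold-change of -1.65. The run over Ifih1 and the neighbouring Fap spanned 77.8 kb, and 42 of its 46 peaks were lowered with a median of -1.84. Its median counts were 99.7, 100 and 105 with LPS, 28.1, 30.2 and 27 with LPS + (+)-JQ1, and 28.3, 22.7 and 18.5 in unstimulated cells. Neighbouring peaks of a run share a locus and were not counted as independent observations. By peaks within 25 kb of a TSS, Tmcc3 (36 of 64), Slc7a2 (18 of 26), Oasl1, Slfn9 (16 of 21), Gm6907 (16 of 25), Oas2, Trim30c (15 of 30) and Acsl1 (15 of 36) had the most lowered peaks, and Sqstm1 (10 of 24), Mgat4b (10 of 27), Slc43a2 (8 of 22), Fam3a (7 of 14) and Hist1h2bm (7 of 16) the most raised ones.

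**Figure D4:**
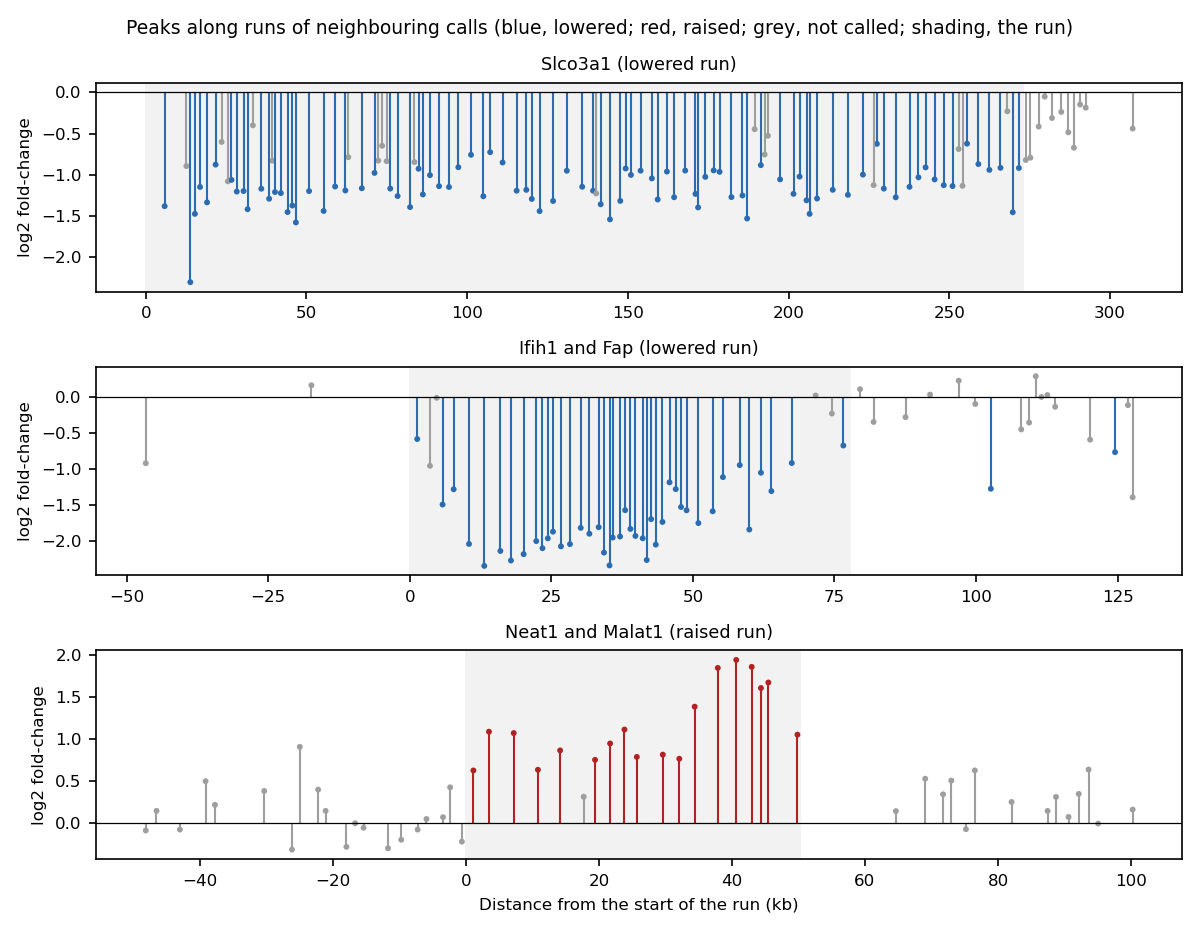
Log2 fold-changes (LPS + (+)-JQ1 over LPS) of single peaks against distance from the start of 3 runs, with 50 kb on either side and the run shaded. In the Slco3a1 run 88 of 106 peaks were lowered, in the Ifih1 and Fap run 42 of 46 were lowered, and in the Neat1 and Malat1 run 18 of 19 were raised.

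The regions that gained accessibility were led by other kinds of gene. The largest named gain lay within the histone gene cluster of chromosome 13, 4829 bp from the TSS of Hist1h4j, in a peak with 26.8, 23.5 and 26.9 counts with LPS and 125, 124 and 171 in LPS + (+)-JQ1 cells. The groups did not overlap, and the log2 fold-change was 2.46 ± 0.22 (edgeR adjusted p = 1.4e-15). A second region of the cluster, over Hist1h1d and nearest Hist1h3e, rose from 57.0, 66.6 and 61.7 to 212, 168 and 217 (1.69 ± 0.18). At Gm17658, in the same cluster, a promoter-class peak rose from 54.4, 89.1 and 102 to 229, 193 and 259 (1.49 ± 0.17). Histone genes are near-identical copies. Per the methods the reads aligned to mm9 were uniquely mapped ones, and the effect of such copies on these counts was not tested.

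The highest counts among the named raised peaks lay between genes at chr14:103370947-103375838, 70356 bp from its nearest TSS, that of Irg1. It had 246, 281 and 227 counts with LPS and 1290, 1090 and 1090 in LPS + (+)-JQ1 cells, a 4.6-fold difference (log2 fold-change 2.20 ± 0.15, edgeR adjusted p = 2.9e-22). Within 25 kb of Irg1 itself the direction was the opposite: the peak with the lowest adjusted p, 12888 bp from the TSS, went from 680, 507 and 559 to 202, 123 and 111 (-2.04 ± 0.16). The distance leaves the target gene of the raised peak unassigned.

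On chromosome 19, 18 of 19 neighbouring peaks rose over 50.2 kb that hold the long non-coding RNA genes Neat1, the scaffold of paraspeckles, and Malat1. All 6 peaks over Neat1 rose, with log2 fold-changes between 1.05 and 1.94, and the 2 over Malat1 rose by 0.63 and 0.86. The largest, a promoter-class peak in Neat1, had 79.4, 94.8 and 94.2 counts with LPS and 274, 417 and 330 in LPS + (+)-JQ1 cells (1.94 ± 0.16, edgeR adjusted p = 3.5e-18). A distal peak beside it had 60.4, 51.6 and 59.5 against 111, 246 and 250 (1.86 ± 0.19), with LPS + (+)-JQ1 replicate 1 below the other two. The nearest protein-coding TSS, that of Frmd8, lay 45738 and 43977 bp away.

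Further raised peaks lay near Srxn1, the gene of the antioxidant enzyme sulfiredoxin, which went from 56.1, 27.2 and 26.9 to 160, 147 and 107 (1.87 ± 0.25), and near Zfp703, a transcriptional repressor gene, from 74.2, 68.5 and 56.1 to 275, 202 and 198 (1.74 ± 0.17). Slc40a1 encodes ferroportin, the iron exporter. Its raised promoter-class peak had 34.5, 50.7 and 29.2 counts with LPS, 59.1, 98.4 and 97.6 with LPS + (+)-JQ1, and 195, 221 and 232 in unstimulated cells. The treated libraries thus lay between the other groups. Gm4889, Gm17350, Ccdc21 and Lhfpl2 named the remaining raised peaks, with log2 fold-changes of 1.72, 1.61, 1.31 and 1.27.

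By list, the circadian and stress response genes had the largest raised share: 24 of 292 peaks rose (8.22%) and 2 fell, with a median of 0.13. Sqstm1, which encodes the autophagy receptor p62, had 10 raised peaks of 24, Gclm (glutathione synthesis) 3 of 18, Txnrd1 (thioredoxin reductase) 3 of 13, and Nfe2l2, which encodes the NRF2 factor of the oxidative stress response, 2 of 14. Nqo1, Ddit3, Sesn2, Trib3, Nr1d2 and Slc7a11 had 1 each. Of the circadian genes on the list Nr1d2 alone had a DAR, and Nr1d1, Per1, Per2, Cry1, Dbp and Arntl had none. The stress genes Hmox1, Hspa1a and Hspa1b had none either. At Sqstm1 the peak over the TSS had 292, 331 and 226 counts with LPS and 973, 478 and 468 in LPS + (+)-JQ1 cells (1.16 ± 0.16). All 3 treated libraries were above the LPS libraries, and replicate 1 was the highest by far. Their mean was 640 with an SD of 289, a spread that the SE does not describe. A run of 10 raised peaks of 10 spanned 26.1 kb from Sqstm1 to Mgat4b, and another of 8 of 10 lay at Txnrd1. The median counts of both runs were also highest in LPS + (+)-JQ1 replicate 1, at 402 against 179 and 199 for Sqstm1 and 511 against 333 and 311 for Txnrd1.

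Lipid and cholesterol genes had 23 raised peaks of 295 (7.80%) and 11 lowered. Pparg, a lipid-sensing nuclear receptor, had 5 raised of 20, Mylip, which encodes a ubiquitin ligase, 4 of 6, Cd36 4 of 23, Apoe and Gpnmb 3 each, and the cholesterol exporter Abca1 2 of 11. A distal peak 21850 bp from the Mylip TSS went from 180, 175 and 148 to 395, 396 and 411 (1.25 ± 0.14), with tight groups. A raised run of 9 peaks of 11 overlapped the lysosomal lipase gene Lipa, with Ch25h (cholesterol 25-hydroxylase) also among the nearest genes.

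Some of the BET genes themselves gained accessibility. Of 186 peaks near genes of BET proteins and P-TEFb 9 rose (4.84%) and 0 fell. Brd2 had 5 of 20, Hexim1 and Hexim2, neighbours that encode inhibitors of P-TEFb, shared 2, and Brd3 and Cdk9, the P-TEFb kinase, had 1 each. At Brd2 a distal peak 7940 bp from the TSS had 75.1, 83.5 and 110 counts with LPS and 226, 236 and 234 in LPS + (+)-JQ1 cells (1.39 ± 0.17, edgeR adjusted p = 5.3e-10).

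The remaining lists held calls in both directions. Their shares stand beside the 3.27% lowered and 1.61% raised among all peaks within 25 kb of a protein-coding TSS. Macrophage lineage and surface genes had 21 raised (5.69%) and 17 lowered peaks (4.61%) of 369, and their median was 0.12. Raised ones lay near Mpeg1 (6 of 19) and Csf1r (3 of 17), and lowered ones near the Fc receptor genes Fcgr2b (6 of 23) and Fcgr1 (3 of 15). The Fcgr1 peak shown by its sequence went from 1040, 1210 and 1260 to 326, 370 and 354 (-1.73 ± 0.14). Genes of LPS sensing had 9 peaks in each direction of 294 (3.06% each), a lowered share near that of all peaks. The raised ones included peaks near Cd14 (4 of 24) and Tlr4 (3 of 12), the receptor itself, and the lowered ones peaks near the kinase gene Ikbke (4 of 15). In the macrophage list the lead turned with loess offsets, with testing against a log2 fold-change of 0.5, with at least 10 counts in every library and with some replicates left out. In the LPS sensing list neither direction led in the main fit. There 1 direction led with settings such as total counts, DESeq2's size factors, no filter on low counts and the replicate block. Among lysosome genes 14 of 280 fell (5%), 11 of them near Mitf, and 11 rose (3.93%), at Ctsb, Ctsd, Atp6v0d2, Ctsk and Ctss. The alternative activation and tissue remodelling list had 14 raised (5.34%) and 12 lowered peaks (4.58%) of 262. The raised ones included peaks near Mmp12 (4) and Pdgfb (3), and the lowered ones near Mmp14 (4). Its alternative activation genes Arg1, Retnla, Chi3l3, Mgl2, Egr2 and Klf4 had no DAR, and Clec10a had 1 lowered peak. Feedback genes had 13 lowered (4.22%, Dusp16 6, Socs1 3) and 10 raised (3.25%, Zfp36l1 4, Dusp1 3) of 308. Ribosomal protein genes, a group of housekeeping genes, had 8 lowered (2.81%) and 4 raised (1.4%) of 285, near the shares of all peaks. The lead turned with some replicates left out in the lysosome, feedback and alternative activation and tissue remodelling lists. In the feedback list it turned also with testing against a log2 fold-change of 0.5 and with a window of 10 kb. In the alternative activation and tissue remodelling list it turned also with that test and with loess offsets. In the ribosomal list it turned with assignment to the nearest TSS.

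The effect was then compared with that of (+)-JQ1 without LPS, which shares no library with it. (+)-JQ1 alone lowered 6125 peaks (3.15%) and raised 15247 (7.85%). Of the 6770 peaks lowered under LPS 724 were also lowered by (+)-JQ1 alone, 10.7% of the first and 11.8% of the second list, and of the 3378 raised 1483 were also raised, 43.9% and 9.73%. These shares rest on how the unstimulated libraries are scaled. With total counts in place of TMM the shares of the lists under LPS were 35.6% for lowered, against a background of 14.1%, and 16.4% for raised, against 1.97%, and with loess offsets they were 14.5% against 2.13% and 19% against 1.41%. Under each scaling tried, the share of the list under LPS was above the percent of all peaks called by (+)-JQ1 alone in that direction. The scalings other than TMM were chosen for this overlap after seeing the data.

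The interaction of the fit, the effect with LPS minus the effect without, tested the difference itself. It called 6202 peaks more negative (3.19%) and 1261 more positive (0.649%) under LPS, but 1838 and 4674 with total counts, so the balance over all peaks turned with the scaling. Leaving replicate 2 out of every group left 87 and 29, leaving out replicate 1 left 823 and 232, and leaving out replicate 3 gave 9477 more negative peaks. Without LPS replicate 1 the counts were 1480 and 391, and without LPS + (+)-JQ1 replicate 3 they were 1424 and 389. The DARs and the named peaks were chosen by the effect with LPS, which is the first term of the interaction, so the sign and size of their interaction are in part set by that choice and are given as a description. Of the lowered DARs 1154 (17.0%) were called more negative and 0 more positive, and of the raised DARs 318 (9.41%) were called more positive and 4 more negative. With total counts 456 lowered (6.78%) and 679 raised DARs (21.7%) were called in their own direction, so which set had the larger share turned with the scaling. Of the 15 named lowered peaks 14 were called, all but Samd9l, and 6 were lowered by (+)-JQ1 alone. Of the 13 named raised peaks 8 were called and 8 were raised by (+)-JQ1 alone.

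Individual loci showed both kinds of pattern. At the Il1b distal peak (+)-JQ1 alone gave 24.6, 21.1 and 15.7 counts against 28.9, 19.6 and 9.26 unstimulated, a log2 fold-change of 0.11 ± 0.35, and the interaction was -3.12 ± 0.41 (edgeR adjusted p = 6e-07). At the Oas2 peak (+)-JQ1 alone lowered the counts from 106, 80.5 and 65.9 to 38.1, 31.6 and 43.2 (-1.13 ± 0.21, edgeR adjusted p = 1.5e-05), and the interaction was -1.72 ± 0.27. At the Hist1h4j peak (+)-JQ1 alone raised the counts from 41.5, 52.6 and 54.6 to 173, 163 and 175 (1.77 ± 0.21). There the interaction of 0.69 ± 0.31 did not pass (edgeR adjusted p = 0.23). At Srxn1 (+)-JQ1 alone had 78.4, 27.6 and 54.0 counts against 70.4, 53.7 and 32.9, groups that overlapped, and the interaction was 1.80 ± 0.36. The plot of the effect with and without LPS shows all 28.

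**Figure D5:**
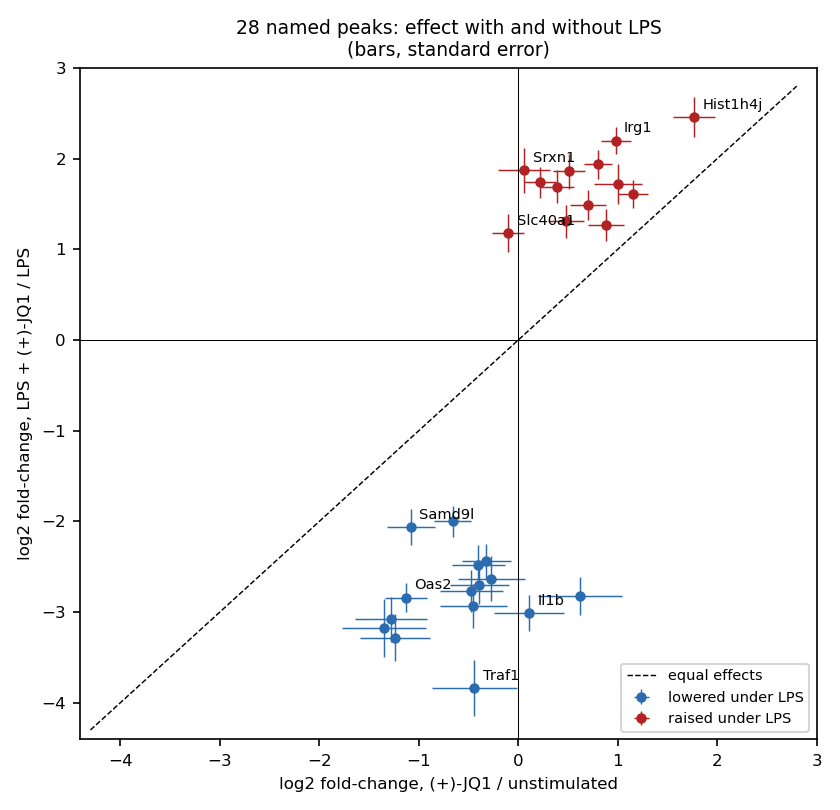
Log2 fold-change of each of the 28 named peaks for (+)-JQ1 over unstimulated (horizontal) and LPS + (+)-JQ1 over LPS (vertical). Bars are standard errors worked back from the F statistic of the edgeR test, and a dashed line marks where both are equal. The peaks were chosen for large values on the vertical axis, which places the lowered ones (blue) below the line and the raised ones (red) above it, and on the horizontal axis the Il1b distal peak is at 0.11 and Srxn1 at 0.06.

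The sequence of the DARs was described by motif matches in the central 500 bp, beside the share in all 157564 distal peaks. An AP-1 match was present in 19.4% of lowered distal peaks (95% Wilson interval 18.4 to 20.5) and in 25.4% of raised ones (23.8 to 27), against 19.3% of all. An IRF match was present in 10.1% of lowered (9.33 to 10.9) and 7.06% of raised peaks (6.16 to 8.08), against 7.44% of all. An NF-kappaB match was present in 3.18% of lowered (2.76 to 3.68) and 1.64% of raised peaks (1.23 to 2.18), against 2.00%. A PU.1 match was present in 6.07% of lowered and 8.66% of raised peaks, against 6.98%. The intervals treat peaks as independent and cover counting error alone. C/EBP, E-box (CACGTG), GC box (GGGCGG) and CRE (TGACGTCA) matches were within 1 percentage point of their share in all distal peaks in both sets. For CRE that share was itself 0.41%. Over whole peaks, which were wider in both sets, shares differed more. C/EBP was then in 15.8% of lowered and 14.1% of raised peaks against 10.1% of all, AP-1 in 46.5% and 52.8% against 35.2%, and PU.1 in 15.6% and 22% against 12.7%.

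The cells were checked by peaks within 1 kb of the TSS of marker genes. All 8 macrophage markers had one, and their summed level was 279 to 305 CPM (counts scaled to a common library total) in LPS and 335 to 339 in LPS + (+)-JQ1 libraries. Of 8 T cell markers 2 had one (5.85 to 7.39 and 7.80 to 10.1), and Cd3e, Cd3d, Cd3g, Cd4, Cd8a and Trac had no peak in the tables within that distance and so no count. Of 7 neutrophil markers 5 had one (67.1 to 74.8 and 63.7 to 71.5), of 6 B cell markers 5 (26.5 to 28.9 and 27 to 30.6), and of 6 fibroblast markers 2, Col1a1 and Pdgfra (48.9 to 53.1 and 38.5 to 43.7). The macrophage, T cell and fibroblast sums did not overlap between the groups, and their part in the results was not tested. Accessibility at a marker gene can be present without its expression. Total counts in peaks were 16862774 to 23095535 for LPS and 13619436 to 25908198 for LPS + (+)-JQ1 libraries, and Spearman's correlation between replicates across peaks was 0.924 to 0.931 and 0.907 to 0.931.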

How the data were processed

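ATAC-seq was analysed from the raw counts per peak that the authors deposited for 18 libraries. Per the methods and the submitters' notes, read pairs were processed with PEPATAC, aligned to mm9 with Bowtie2, peaks were called with MACS2 and joined, and ChIPseeker classed a peak as promoter (1000 bp upstream to 100 bp downstream of a TSS) or distal. The counting tool, the Tn5 shift and the base from which starts count are not given in the sources used here, so coordinates stand as in the files. A further 6 columns that match no sample were not used.

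All 18 libraries in 6 groups were fitted with edgeR 4.0.16 (quasi-likelihood, TMM, filterByExpr, 194230 of 194284 peaks) in R 4.3.3, without a replicate block. Normalized counts are scaled to the mean effective library size. The report gives the range of total counts for the LPS and the LPS + (+)-JQ1 libraries. Of these, LPS + (+)-JQ1 replicate 1 had the lowest total (13619436). Deeper libraries measure low peaks with less counting error. Peaks were tied to protein-coding TSSs of GENCODE vM1 (NCBIM37, the mm9 assembly) within 25 kb or to the nearest one. Of the gene lists, Tfeb and Tfe3 were not matched, and some members are not reported here. Named peaks had a mean of at least 50 normalized counts and the same direction in 3 pairs. The 10 lowered distal, 5 lowered promoter, 8 raised distal and 5 raised promoter peaks with the largest changes, 1 a gene, were named. For each list the rule named the 2 genes with the lowest adjusted p in each direction, and other list members were named after their values were seen. The contrast, lists and tests were chosen with earlier results of these data known.

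Same-numbered libraries were taken to come from the same mouse (3 mice). Their deviations from the group means correlated at 0.0236, -0.0347 and 0.0432 between LPS and LPS + (+)-JQ1 libraries. Those of differently numbered libraries correlated at -0.0591 to 0.0273, so the counts do not show which libraries share a mouse. The fit was tested on simulated data. Alternatives were other scalings, filters, thresholds, DESeq2 1.42.0, a lane term, a replicate block and left-out libraries. IL-10-treated libraries entered the fit only.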

Additional observations from a re-analysis of the deposited data

Results flagged for a closer look

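Results were singled out where the effect of (+)-JQ1 with LPS differed from its effect without LPS by edgeR's interaction test, with Benjamini-Hochberg adjustment over all peaks. Over all peaks the effect was more negative under LPS at 6202 and more positive at 1261, and the balance turned with total counts. The peaks named here were chosen by the effect with LPS, 1 of the terms compared, so their differences are in part set by that choice.

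Among lowered peaks the difference, effect with LPS minus effect without on the log2 scale, was -3.45 at the Il1b promoter-class peak, -3.40 at Traf1, -3.12 at the Il1b distal peak, -2.48 at Oasl1, -2.37 at Il6 and -2.30 at Pydc3. It was -2.32 and -2.12 at the distal and promoter-class peaks of 2210016L21Rik, -2.05 and -2.07 at those of Gm4951, -1.83 at Ckap2l, -1.80 at Iigp1, -1.72 at Oas2 and -1.35 at Cerkl. The Ckap2l call was the least stable of these, made in 7 of 18 settings.

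Among raised peaks the difference was 1.80 at Srxn1, 1.52 at Zfp703, 1.35 and 1.14 at the distal and promoter-class peaks in Neat1, 1.3 at Hist1h3e, 1.27 at Slc40a1, 1.22 at the peak nearest Irg1 and 0.83 at Ccdc21. The Ccdc21 call was made in 10 of 19 settings. In each of the 28 named peaks the sign was the same in every setting tried.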

How the results depend on the processing

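All 28 named peaks kept their direction and call under the alternatives that gave a value (579 pairs of peak and alternative). Counts of called peaks changed more. The replicate block pairs same-numbered libraries, which were taken to come from the same mouse. With it 1192 promoter peaks fell and 627 rose, 5581 and 2747 distal peaks did, and the interaction called 5395 and 1172. The block thus moved no count by over 1.5 times. Testing against a log2 fold-change of 0.5 (glmTreat) left 220 lowered and 25 raised promoter, 1276 and 175 distal, and 85 and 17 interaction peaks. An FDR of 0.01 left 345 raised promoter, 3273 and 1386 distal, and 1364 and 190 interaction peaks. The interaction called 9935 and 792 with DESeq2, 1838 and 4674 with total counts, 3389 and 2054 with separate fits of the classes, 1083 more negative with loess offsets, and 1913 more positive with at least 10 counts in every library. Leaving out replicates gave 566 to 1196 lowered and 170 to 702 raised promoter, 2445 to 5477 and 798 to 2652 distal, and 87 to 9477 and 29 to 1352 interaction peaks. The causes were not tested. The p-values rest on the spread between libraries within groups, pooled over all 18 libraries without a mouse term. The cells came from 3 mice, and at low counts smaller changes were not detectable.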
